A study of Sus scrofa with 6 samples.

Results

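The 2 skeletal muscle libraries of a series of 6 pig (Sus scrofa) RNA-seq libraries were compared with the 4 libraries of fat and liver. They were chosen by the tissue label alone. The groups are muscle, fat and liver of Berkshire pigs and of Korean native pigs, with 1 library for each tissue and breed. All 6 came from frozen tissue by Trizol extraction and a TruSeq RNA library from 1 µg of total RNA, and the labels name no treatment and no genetic change. The labels give no age, sex, fat depot or name of the muscle. The title counts 3 of each breed without naming what is counted, so libraries of one breed could be from the same animal or from different ones. The p-values below therefore measure only the spread between these libraries.

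Skeletal muscle fibres contract by sliding actin thin filaments past myosin thick filaments, held in register by the giant proteins and crosslinkers of the Z disc and the M band. A nerve impulse is turned into a calcium pulse from the sarcoplasmic reticulum, calcium binds troponin, and a calcium pump ends the contraction. Fibres regenerate ATP from phosphocreatine, from their own glycogen and, in oxidative fibres, in mitochondria, and for many of these steps the muscle protein is made by its own gene beside a gene used in other tissues.

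Levels are CPM (counts of a gene scaled to a common library size) after scaling with TMM factors, which correct for a few genes taking most of a library. A CPM value also grows with transcript length, so levels are compared between libraries and not between genes. In every list of values the Berkshire library comes first and the Korean native pig library second. Differences are log2 values of the fitted model, given with 1 SE. A gene is called above both tissues where it passed against fat and against liver (adjusted p under 0.05 in both, edgeR quasi-likelihood test with Benjamini-Hochberg adjustment over all genes tested), and below both likewise.

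The label was checked with 4 markers of muscle fibres. ACTA1, the actin of skeletal muscle thin filaments, was at 49067 and 71091 CPM in muscle, 8.32 and 13.8 CPM in fat and 20.8 and 22.0 CPM in liver. TPM1, a tropomyosin that lies along the actin filament, was at 9270 and 23852 CPM in muscle against 152 and 117 CPM in fat and 73.2 and 87.0 CPM in liver. For PYGM, the glycogen phosphorylase of muscle, the levels were 5551 and 13256 CPM in muscle, 4.99 and 19.4 CPM in fat and 4.40 and 5.63 CPM in liver. Both muscle libraries lay far above all 4 others for each marker. ATP2A1, the calcium pump of fast fibres, gave 8823 and 12514 CPM in muscle, 1.57 and 2.17 CPM in fat and 3.60 and 2.98 CPM in liver. The log2 differences of these genes against fat were 12.42 ± 0.69 for ACTA1, 6.82 ± 0.66 for TPM1, 9.71 ± 0.67 for PYGM and 12.46 ± 0.65 for ATP2A1. Against liver they were 11.42 ± 0.66, 7.62 ± 0.68, 10.73 ± 0.70 and 11.63 ± 0.63, and the largest adjusted p among the 8 tests was 0.000941, for TPM1 against fat.

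The libraries held between 5897407 and 7912093 counts on genes. A few genes took much of the muscle libraries, where 82 and 52 genes held 50% of the counts, against 488 and 424 genes in fat and 72 and 64 in liver. Of 25322 gene IDs, 13810 passed the filter on low counts and were tested. In muscle, 1003 genes were above both tissues, which is 7.26% of those tested, and 370 were below both, which is 2.68%. A further 1291 genes were above liver only, 324 above fat only, 2149 below liver only and 414 below fat only, and 151 lay between the tissues. Against the mean of fat and liver, 2006 genes were higher (14.5%) and 1763 lower (12.8%), so 53.2% of these calls were higher. The median log2 difference of all genes tested was -0.03 against that mean. Scaling by total counts moved that median to -0.46, and the median against fat from -0.05 to -0.98, and left 31.5% of the calls higher. The genes above both tissues took 38.4% and 47.1% of all counts in muscle, against 3.79% and 3.75% in fat and 1.75% and 1.77% in liver. In bulk tissue, fewer cells of a type and less RNA per cell cannot be told apart.

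**Figure D1:**
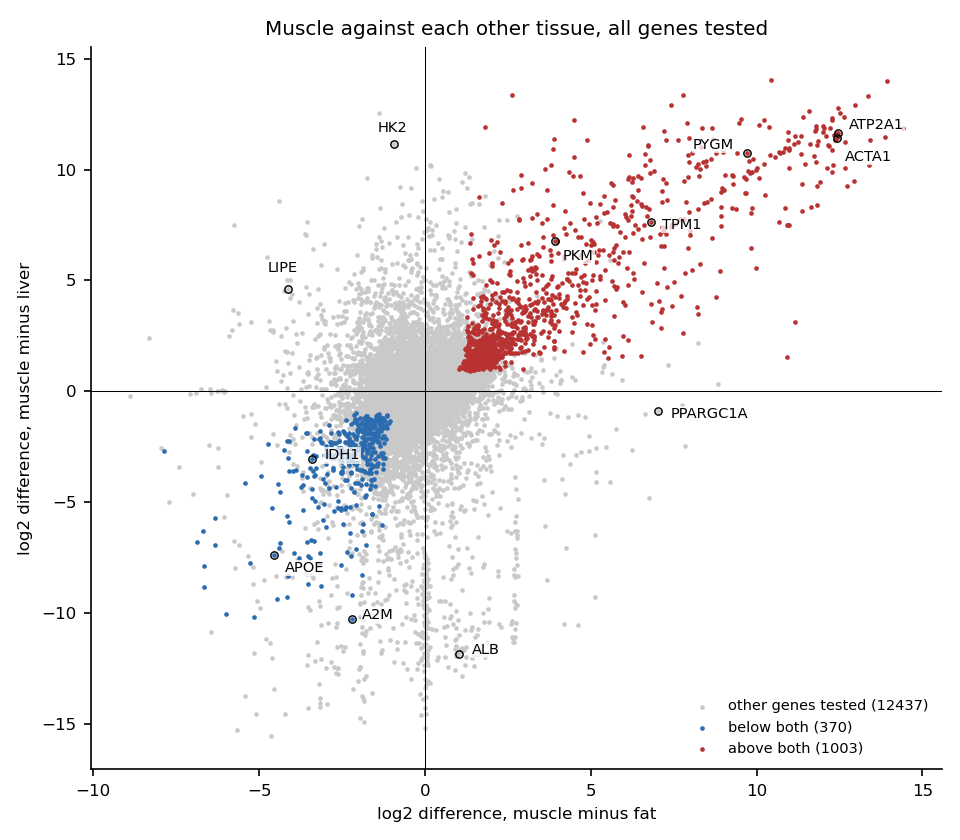
Each point is 1 of the 13810 genes tested, with its log2 difference between muscle and fat on the x axis and between muscle and liver on the y axis. The 1003 genes above both tissues (red) reach log2 differences over 12 on both axes, with ACTA1 and ATP2A1 near the upper right end, and the 370 genes below both (blue) include APOE and A2M; the vertical bands hold genes with hardly any counts in a tissue. Both axes use the same 2 muscle libraries.

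Genes of the contractile filaments were far higher in muscle. All 11 tested genes of the thin filament list were above both tissues, with log2 differences from 5.8 to 11.9 against the mean of fat and liver and a median of 10.9, where the median of all genes tested was -0.03. Besides ACTA1 and TPM1 the list holds the troponins, which carry the calcium switch. TNNC2, the calcium-binding troponin of fast fibres, was at 9592 and 19977 CPM in muscle, 3.23 and 3.75 CPM in fat and 5.20 and 3.31 CPM in liver (log2 12.00 ± 0.77 against fat and 11.69 ± 0.76 against liver, adjusted p 0.000235 and 8.93e-05). Its counterpart in slow fibres, TNNC1, was at 1556 and 2796 CPM in muscle, 0.196 and 0.789 CPM in fat and 0.800 and 0.663 CPM in liver (log2 12.10 ± 0.68 and 11.49 ± 0.67). No library of fat or liver came near those of muscle for either gene. NEB encodes nebulin, the ruler protein that spans the thin filament. It was at 10904 and 13107 CPM in muscle, 3.33 and 5.82 CPM in fat and 19.6 and 16.7 CPM in liver (log2 11.37 ± 0.65 and 9.35 ± 0.60). LMOD2, a leiomodin that lengthens thin filaments, differed from these in its order between breeds: it was at 2716 and 690.4 CPM in muscle, with the Berkshire library higher, against 0.490 and 0.296 CPM in fat and 0.400 and 0.663 CPM in liver (log2 11.85 ± 0.77 and 11.29 ± 0.77). ACTC1, the cardiac actin, had the smallest difference of the list, with 35.3 and 9.46 CPM in muscle, 0.294 and 0.197 CPM in fat and 0.200 and 0.663 CPM in liver (log2 6.28 ± 0.74 and 5.33 ± 0.74). Reads that did not align uniquely were left out of the gene counts, and whether this lowered the values of near-identical actin genes was not tested.

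Of the 10 thick filament genes tested, 9 were above both tissues (median log2 11.8 against the mean). MYL1 and MYL11, light chains of fast myosin, were at 8726 and 19572 CPM and 6938 and 20428 CPM in muscle. In fat they were at 1.57 and 3.85 CPM and 1.47 and 4.24 CPM, and in liver at 4.60 and 3.81 CPM and 2.20 and 4.64 CPM. The log2 differences were 12.34 ± 0.76 for MYL1 and 12.20 ± 0.62 for MYL11 against fat, and 11.57 ± 0.75 and 11.88 ± 0.62 against liver. MYBPC2 and MYBPC1, the fast and slow forms of myosin binding protein C, were at 4624 and 9377 CPM and 7624 and 5517 CPM in muscle and at most 3.25 CPM in any other library. The fast form was higher in the Korean native pig library and the slow form in the Berkshire library. Myosin heavy chain genes lie in clusters of near-identical copies, and the genes MYH1, MYH2, MYH4 and MYH7 were not analysed here, so the levels read as 27405 and 33548 CPM for MYH8 and 5570 and 7824 CPM for MYH6 in muscle are uncertain as to the gene. Against fat and liver both passed (log2 12.43 ± 0.63 and 11.62 ± 0.62 for MYH8, 11.60 ± 0.58 and 11.16 ± 0.58 for MYH6). The exception in the list was MYBPH, a relative of myosin binding protein C, which was at 19.0 and 1012 CPM in muscle, 7.15 and 5.62 CPM in fat and 1.80 and 1.16 CPM in liver. Only its Korean native pig library was high, and it passed against liver (adjusted p 0.0173) and not against fat (adjusted p 0.0776).

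In the Z disc and M band list, 17 of 18 tested genes were above both tissues (median log2 8.52). MYOT (myotilin) and MYOZ1 (myozenin), both Z disc proteins, were at 5044 and 3157 CPM and 2651 and 4718 CPM in muscle and at most 2.00 CPM in any library of fat or liver. The log2 differences against fat were 12.37 ± 0.62 for MYOT and 12.67 ± 0.76 for MYOZ1, and against liver 11.32 ± 0.60 and 11.25 ± 0.72. Genes that crosslink or anchor the filaments were higher too. ACTN2, the alpha-actinin of the Z disc, was at 5712 and 2744 CPM in muscle, 7.83 and 2.86 CPM in fat and 6.20 and 4.31 CPM in liver (log2 9.68 ± 0.56 and 9.57 ± 0.56). DES, the desmin intermediate filament that ties neighbouring Z discs together, was at 5878 and 6309 CPM in muscle, 10.4 and 15.0 CPM in fat and 27.6 and 22.4 CPM in liver (log2 8.91 ± 0.55 and 7.92 ± 0.53). No library of fat or liver overlapped those of muscle. XIRP2, which binds actin at sites of remodelling, was at 7822 and 6190 CPM in muscle against 1.96 and 1.97 CPM in fat and 4.20 and 6.46 CPM in liver (log2 11.79 ± 0.64 and 10.36 ± 0.60). CAPZB, the beta subunit that caps actin filaments in many cell types, was the gene of the list that did not pass, with 173 and 192 CPM in muscle, 79.6 and 105 CPM in fat and 109 and 85.0 CPM in liver (adjusted p 0.082 against fat and 0.0694 against liver). Together the listed genes with a matching ID (11 of 16 in the thin filament list, 10 of 18 in the thick filament list and 18 of 31 in the Z disc and M band list, without TTN, TNNT3, TNNI2, MYH1, MYH2, MYH4 and MYH7) took 18.0% and 20.6% of the counts in muscle, against 0.0997% and 0.111% in fat and 0.0432% and 0.0416% in liver.

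Actin, myosin and crosslinkers of other cell types were read beside these. Of 15 tested genes of cytoplasmic and smooth muscle actomyosin, 1 was above both tissues and none below both, a share near the 7.26% of all genes tested, and 4 others had a call against fat or liver. The median log2 difference was 0.12. Scaled by total counts the median was -0.3 and none was above both. ACTB, the cytoplasmic beta-actin, was at 416 and 638 CPM in muscle, 827 and 1161 CPM in fat and 593 and 431 CPM in liver, and the fat libraries were the highest. Neither difference passed (adjusted p 0.159 against fat and 0.999 against liver). The gene above both was CNN1, calponin of smooth muscle, which lost the call without either fat library, at 150.5 and 91.3 CPM in muscle, 39.2 and 27.6 CPM in fat and 6.80 and 6.46 CPM in liver.

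**Figure D2:**
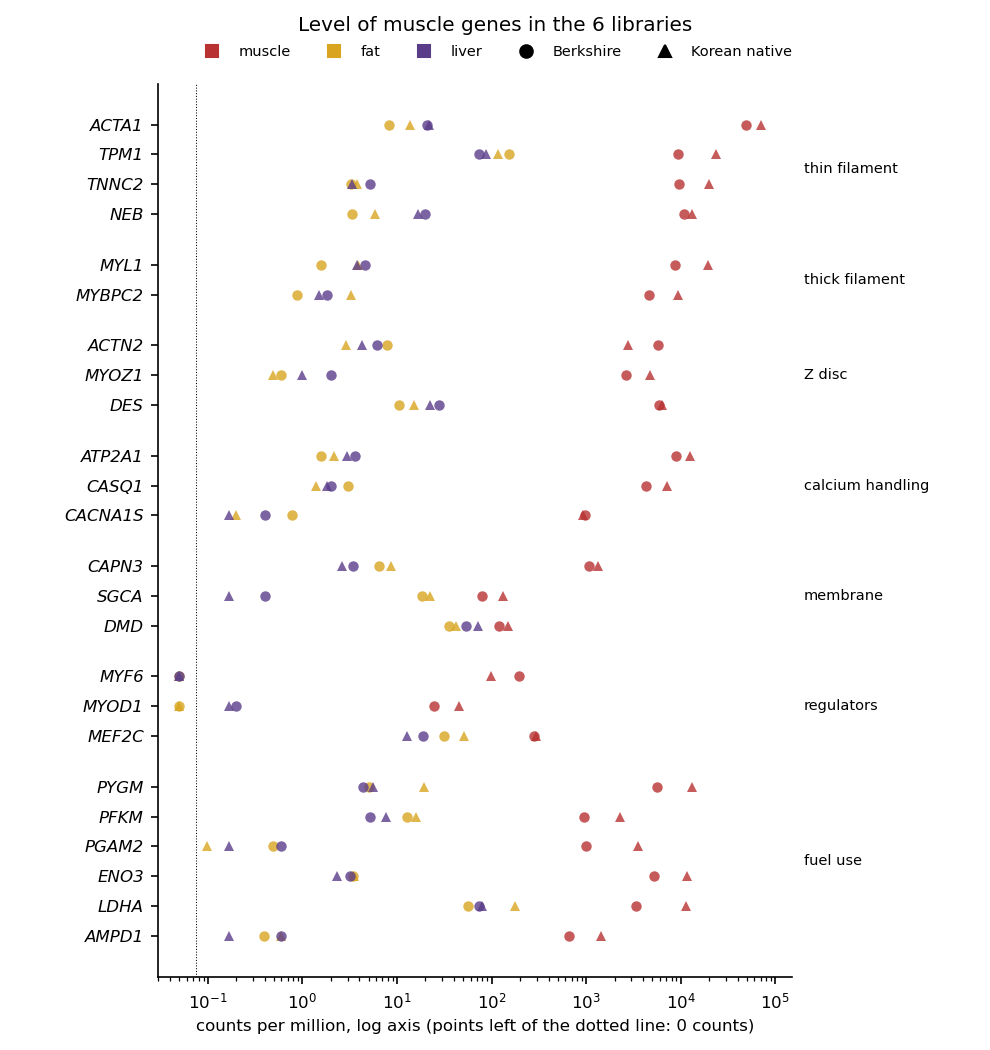
CPM (log axis) of selected muscle genes in the 6 libraries, with tissue as colour and breed as marker shape; points left of the dotted line have 0 counts. For every gene shown both muscle libraries (red) lie right of all fat and liver libraries, and of these genes DMD has the narrowest gap.

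Genes that carry the signal from the surface membrane to the calcium store were nearly all higher in muscle. In the list of excitation-contraction coupling, 15 of 17 tested genes were above both tissues (median log2 9.32). CACNA1S, the voltage sensor in the transverse tubule, was at 962 and 925 CPM in muscle, 0.783 and 0.197 CPM in fat and 0.400 and 0.166 CPM in liver (log2 10.94 ± 0.64 against fat). JPH1, a junctophilin that holds the tubule against the reticulum, was at 649 and 954 CPM in muscle, 1.66 and 1.38 CPM in fat and 0 and 0.829 CPM in liver (log2 8.98 ± 0.71 and 10.80 ± 0.81). CASQ1, calsequestrin, the protein that stores calcium inside the reticulum of fast fibres, was at 4254 and 7116 CPM in muscle, 3.04 and 1.38 CPM in fat and 2.00 and 1.82 CPM in liver (log2 11.33 ± 0.75 and 11.53 ± 0.77). For all of these both muscle libraries were far above the other 4. TRDN, triadin of the release complex, was at 344 and 454 CPM in muscle, had 0 counts in fat and 0 and 0.166 CPM in liver, which makes muscle at least 2710-fold above fat when fat is set to 3 counts over its 2 libraries. SLN, sarcolipin, a small inhibitor of the calcium pump, was at 1757 and 3492 CPM in muscle, 0.588 and 0.592 CPM in fat and 0.600 and 0.663 CPM in liver (log2 12.01 ± 0.62 and 11.94 ± 0.63). PVALB, the calcium buffer parvalbumin, was at 41.5 and 32.3 CPM in muscle, with 0 counts in fat and 0.200 and 0.166 CPM in liver, at least 250.0-fold above fat. The genes that were not above both tissues were MTM1, a lipid phosphatase of the tubules (20.5 and 24.4 CPM in muscle, 14.7 and 13.5 CPM in fat, 31.2 and 48.6 CPM in liver), and ASPH, whose gene makes both junctin and a hydroxylase of other tissues and which was below fat (adjusted p 0.0144).

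Ion channels and pumps of the fibre membrane followed with 7 of 11 tested genes above both tissues (median log2 4.84). SCN4A, the sodium channel that carries the muscle action potential, was at 152 and 262 CPM in muscle, 2.94 and 0.296 CPM in fat and 0.400 and 0.166 CPM in liver (adjusted p 0.00282 and 0.000701). ABCC8, a sulfonylurea receptor, did not pass against either tissue, with 2.01 and 1.15 CPM in muscle, 0.783 and 2.27 CPM in fat and 0.200 and 7.13 CPM in liver. In the neuromuscular junction list, 2 of 6 tested genes were above both tissues, where the share over all genes tested was 7.26%. Of the others, 1 was below 1 tissue only and 3 were not called. The median log2 was 0.06, or -0.36 when scaled by total counts. MUSK, the kinase that gathers acetylcholine receptors, was at 2.75 and 8.53 CPM in muscle, 0.0979 and 0.690 CPM in fat and 0 counts in liver. CHRNA10, a receptor subunit whose place at the junction was not tested, was at 9.33 and 9.69 CPM in muscle, 0 and 0.0986 CPM in fat and 0 counts in liver. MUSK lost the call, so that the count fell to 1, without the muscle library of either breed or without the Korean native fat library.

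The costamere, which ties the sarcomere to the membrane, and membrane repair showed smaller differences. Of 13 tested genes, 9 were above both tissues (median log2 2.83), and 5 without the Korean native fat library. CAPN3, the muscle calpain, was at 1063 and 1325 CPM in muscle, 6.46 and 8.68 CPM in fat and 3.40 and 2.65 CPM in liver (log2 7.30 ± 0.46 and 8.61 ± 0.50). BIN1, which shapes the transverse tubules, was at 629 and 1617 CPM in muscle, 27.3 and 29.8 CPM in fat and 7.60 and 21.7 CPM in liver (log2 5.10 ± 0.51 and 6.27 ± 0.54). DMD, dystrophin, differed by less: 119 and 148 CPM in muscle, 35.1 and 42.5 CPM in fat and 54.0 and 71.6 CPM in liver (log2 1.78 ± 0.29, adjusted p 0.00906, and 1.10 ± 0.28, adjusted p 0.023). The muscle libraries still lay above the others, but DMD lost the call with total counts and without any 1 of the 4 fat and liver libraries. UTRN, utrophin, the relative of dystrophin found in many tissues, was the member called in the other direction, with 98.8 and 57.2 CPM in muscle and 261 and 238 CPM in fat (log2 -1.72 ± 0.33, adjusted p 0.0169), while its 55.8 and 50.2 CPM in liver did not pass (adjusted p 0.257). SNTB1 did not pass against either tissue.

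Several transcription factors of the muscle lineage had 0 counts in fat or liver. Of 24 tested myogenic regulators, 19 were above both tissues, with a median log2 of 4.00, or 3.83 with genes that had 0 counts in a tissue set to their bound. MYF6, a myogenic factor of mature fibres, was at 193 and 99.4 CPM in muscle and had 0 counts in all 4 other libraries, which makes muscle at least 990.0-fold above fat and at least 537-fold above liver. MYOD1, its relative in myoblast commitment, was at 24.9 and 45.7 CPM in muscle, with 0 counts in fat and 0.200 and 0.166 CPM in liver, at least 239-fold above fat. SMYD1, a methyltransferase of sarcomere assembly, was at 49.2 and 133 CPM in muscle and 0 elsewhere, at least 618-fold above fat and 335-fold above liver. More broadly used factors differed by less. MEF2C was at 279 and 292 CPM in muscle, 31.1 and 50.6 CPM in fat and 19.0 and 12.8 CPM in liver (log2 2.81 ± 0.40 and 4.16 ± 0.42), and its relative MEF2A at 162 and 219 CPM, 56.0 and 90.1 CPM and 86.0 and 80.4 CPM (log2 1.40 ± 0.33 and 1.16 ± 0.33). PPARGC1A, a coactivator of mitochondrial genes, lay between the tissues: it was at 30.0 and 26.1 CPM in muscle, above fat at 0.196 and 0.197 CPM (adjusted p 0.000235) and below liver at 56.6 and 49.0 CPM (adjusted p 0.0451). MEF2A lost the call with total counts and without any single library. HDAC4 and PPARGC1B did not pass against either tissue.

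Counting every gene above both tissues, 33 had 0 counts in all 4 libraries of fat and liver, and 12 of these had a symbol. At this depth 0 counts in the 2 libraries of a tissue allow up to 0.147 CPM in fat and 0.272 CPM in liver. Besides MYF6, SMYD1 and the 5 named below, they were VGLL2, a cofactor of fibre type, at 36.6 and 51.4 CPM in muscle, TRIM55, a sarcomeric ubiquitin ligase, at 57.5 and 67.8 CPM, ASB18 at 3.11 and 3.23 CPM, LBX1, a factor of migrating muscle precursors, at 2.01 and 3.23 CPM, and BOLL at 3.48 and 3.23 CPM. The other 5 were CDH15, the cadherin of satellite cells and myoblasts (12.8 and 21.0 CPM), CACNG6, a calcium channel subunit (7.50 and 30.4 CPM), TECRL (19.8 and 16.8 CPM), STYXL2 (11.9 and 16.8 CPM) and ZIC1, a zinc finger factor best known from the nervous system (28.4 and 32.8 CPM). ZIC1, TECRL, STYXL2, BOLL and CACNG6 were named after their values were seen. A gene at 0 in fat and liver could pass the filter on low counts only through both muscle libraries. Counts in both were therefore fixed by the filter and are no further support. DESeq2 called 3 of the 12 (MYF6, ASB18 and BOLL). ASB18, BOLL and LBX1 also lost the call without the Korean native fat library. Of 8 tested satellite cell genes, CDH15 and CALCR were above both tissues, 4 were above liver only, and SPRY1 and VCAM1 did not pass; between 2 and 4 were above both when single libraries were left out, and CALCR lost the call without the Korean native muscle library.

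Among growth and atrophy regulators, 13 of 27 tested genes were above both tissues (median log2 2.64). MSTN, myostatin, the secreted brake on muscle growth, was at 24.7 and 34.6 CPM in muscle, 0.196 and 0 CPM in fat and 0 and 0.166 CPM in liver (adjusted p 0.000868 and 0.000462). TRIM63, the ligase MuRF1 that marks sarcomere proteins for degradation, was at 434 and 183 CPM in muscle, 1.76 and 0.690 CPM in fat and 0.200 and 0 CPM in liver (log2 7.97 ± 0.45 against fat). FBXO32, the other atrophy ligase, was at 102 and 64.1 CPM in muscle, 28.8 and 5.32 CPM in fat and 7.80 and 2.65 CPM in liver (log2 2.66 ± 0.47 and 4.20 ± 0.51). Both ligases were higher in the Berkshire muscle library, and FBXO32 lost the call without the Korean native fat library and without the breed term. ASB2, a substrate adaptor of ubiquitin ligases, was at 285 and 759 CPM in muscle, 1.08 and 0.296 CPM in fat and 0.400 and 0.166 CPM in liver (log2 9.41 ± 0.84 against fat). FOXO1, FOXO3 and IGF1 did not pass against either tissue. Of 9 tested genes for secreted muscle proteins (myokines), MSTN was the only gene above both tissues, where the share over all genes tested was 7.26%. Another 4 were above liver only. FNDC5, the irisin precursor, lay between the tissues at 5.86 and 3.00 CPM in muscle, 1.18 and 0.394 CPM in fat and 14.0 and 26.7 CPM in liver.

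In fuel use, genes of one pathway were called in both directions. In glycogen metabolism, 8 of 22 tested genes were above both tissues and 3 below both, with a median log2 of 0.22 (-0.22 when scaled by total counts). PPP1R3A, the subunit that ties a phosphatase to muscle glycogen, was at 1044 and 1891 CPM in muscle, 0.0979 and 0.394 CPM in fat and 0.400 and 0 CPM in liver (log2 12.45 ± 0.86 against fat). PHKA1 and PHKG1, subunits of the phosphorylase kinase that activates PYGM, were at 379 and 1140 CPM and 108 and 276 CPM in muscle. Against fat their log2 differences were 5.05 ± 0.53 and 4.70 ± 0.34, and against liver 6.27 ± 0.57 and 6.94 ± 0.41. The 3 genes below both tissues were PYGL, the phosphorylase of liver (56.0 and 34.1 CPM in muscle, 147 and 175 CPM in fat, 275 and 483 CPM in liver), GYS2, the glycogen synthase of liver (12.3 and 1.15 CPM in muscle, 82.0 and 34.5 CPM in fat, 618 and 466 CPM in liver), and GBE1, the branching enzyme (17.0 and 7.38 CPM in muscle, 83.5 and 92.9 CPM in fat, 50.6 and 66.4 CPM in liver). PYGL lost the call without the Korean native muscle library or either fat library, and GYS2 without the breed term. GYS1, known as the glycogen synthase of muscle, was not higher there: it was at 949 and 1563 CPM in muscle, 1623 and 1299 CPM in fat and 3739 and 5154 CPM in liver, below liver (log2 -1.84 ± 0.43, adjusted p 0.0154). Without a stated strand setting, reads of an overlapping gene could not be set apart.

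Of 30 tested genes of glycolysis and lactate handling, 11 were above both tissues and 2 below both (median log2 2.29). At the entry of the pathway, HK2, the hexokinase of muscle and fat, was at 27.6 and 47.5 CPM in muscle, 39.9 and 118 CPM in fat and 0 counts in liver. It was above liver and did not pass against fat (adjusted p 0.121). SLC2A4, the glucose transporter that answers to insulin, was at 5.49 and 6.00 CPM in muscle, 4.70 and 5.42 CPM in fat and 0 and 0.497 CPM in liver, also above liver only. For each enzyme named next, both muscle libraries were above all others. PFKM, phosphofructokinase, was at 947 and 2269 CPM in muscle, 12.6 and 15.9 CPM in fat and 5.20 and 7.62 CPM in liver (log2 6.70 ± 0.48 and 7.89 ± 0.51). GAPDH was at 5284 and 7822 CPM in muscle, 159 and 231 CPM in fat and 154 and 184 CPM in liver (log2 5.07 ± 0.44 and 5.26 ± 0.44). PGAM2, the phosphoglycerate mutase of muscle, was at 996 and 3563 CPM in muscle, 0.490 and 0.0986 CPM in fat and 0.600 and 0.166 CPM in liver (log2 12.63 ± 1.10 and 12.38 ± 1.11). Fat and liver hardly had any reads of it. ENO3, the enolase of muscle, was at 5159 and 11699 CPM in muscle, 3.43 and 3.55 CPM in fat and 3.20 and 2.32 CPM in liver (log2 11.16 ± 0.72 and 11.50 ± 0.74). PKM, pyruvate kinase, was at 3227 and 12264 CPM in muscle, 320.3 and 613 CPM in fat and 59.6 and 56.3 CPM in liver (log2 3.91 ± 0.59 and 6.76 ± 0.68). LDHA, which turns pyruvate into lactate, was at 3379 and 11271 CPM in muscle, 56.3 and 175 CPM in fat and 72.8 and 78.7 CPM in liver (log2 5.96 ± 0.62 and 6.28 ± 0.63). Each of these was higher in the Korean native pig muscle library than in the Berkshire one. SLC16A3, which exports lactate, was above both tissues too, at 14.6 and 53.1 CPM in muscle, 0.686 and 1.08 CPM in fat and 0.400 and 0.166 CPM in liver. TPI1 and GPI were above both tissues (GPI not without the Korean native fat library), while PGK1 passed against liver (adjusted p 0.0181) and not against fat (adjusted p 0.0563); these 3 were named after their values were seen. The 2 genes below both tissues were PGAM1 and ENO1, the forms of these enzymes in most other tissues, and without the Berkshire liver library, the Korean native fat library or the Korean native muscle library neither passed as below both. ENO1 also lost the call without the Berkshire muscle library.

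The 2 forms of an enzyme or filament protein were followed through 40 pairs of genes, each a form known from muscle beside a form known from other tissues. In 20 pairs both genes were tested, and in 16 of these the muscle form was above both tissues while the other form was not. Over all pairs, 25 of 30 tested muscle forms were above both tissues, and of 25 tested other forms none was above both and 6 were below both. Over all genes tested, 7.26% were above both tissues and 2.68% below both. For the other forms, none above both is near the 7.26%. The pairs were chosen from known biology with earlier results of these libraries in view. In 4 pairs the 2 forms were called in opposite directions: PYGM above and PYGL below, PGAM2 above and PGAM1 below, ENO3 above and ENO1 below, and SLC25A4 above and SLC25A5 below. PGAM1 was at 61.9 and 44.3 CPM in muscle, 189.5 and 240.5 CPM in fat and 168 and 121 CPM in liver (log2 -2.04 ± 0.36 and -1.44 ± 0.35). ENO1 was at 89.9 and 93.9 CPM in muscle, 194 and 348 CPM in fat and 245 and 229.7 CPM in liver (log2 -1.52 ± 0.37 and -1.38 ± 0.36). Both muscle libraries were below all others for these genes. SLC25A4 and SLC25A5 carry ADP into mitochondria and ATP out. SLC25A4 was at 481 and 1025 CPM in muscle, 64.7 and 31.3 CPM in fat and 157 and 217 CPM in liver, and SLC25A5 at 11.9 and 10.1 CPM, 37.7 and 27.2 CPM and 37.8 and 44.1 CPM. SLC25A4 lost the call without the Korean native muscle library or the Berkshire liver library, and SLC25A5 without the Korean native muscle library or either fat library. UNC45B, the myosin chaperone of striated muscle, was at 214 and 394 CPM in muscle, 0.196 and 0.197 CPM in fat and 0 counts in liver, at least 1120-fold above liver. Its general form UNC45A was below fat at 21.6 and 22.8 CPM in muscle and 56.0 and 47.4 CPM in fat, with 18.6 and 18.9 CPM in liver. The 4 pairs of which both genes were tested and the muscle form was not above both included GYS1 with GYS2, SLC2A4 with SLC2A2, and BCAT2 with BCAT1.

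**Figure D3:**
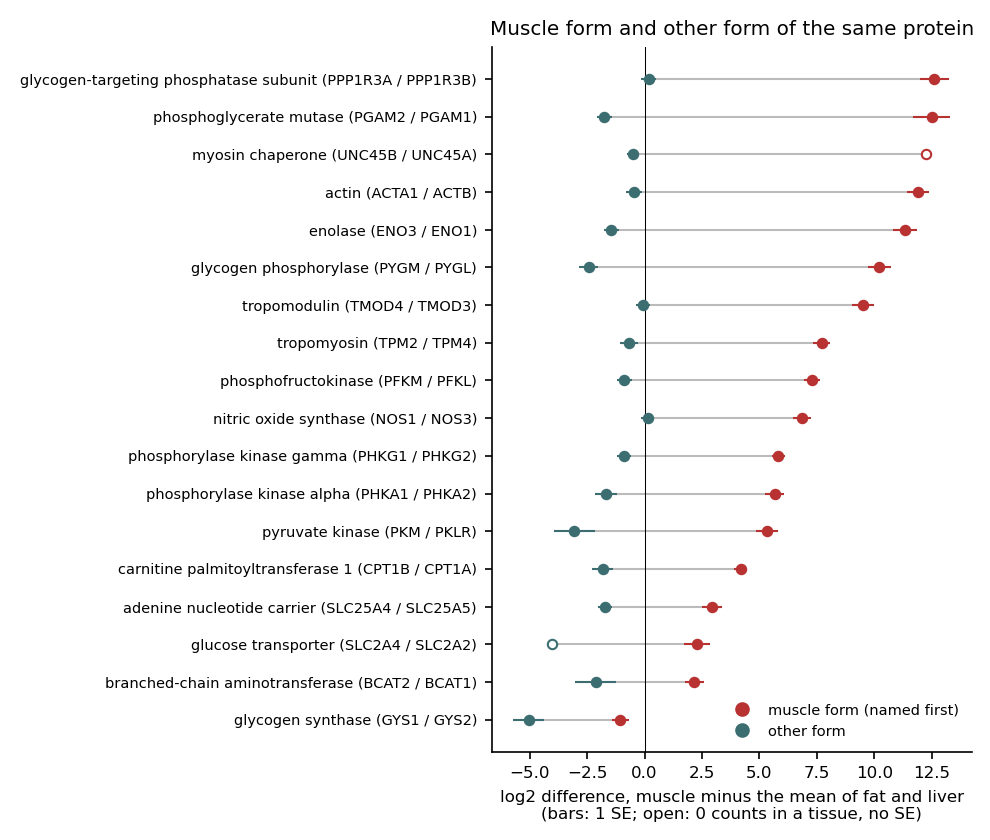
Log2 difference of muscle from the mean of fat and liver for pairs with both genes tested. The sodium pump and hexokinase pairs are not drawn. The muscle form is red and the other form green, with bars of 1 SE. Open points have 0 counts in a tissue and no SE. All red points but GYS1 lie right of 0, and all green points lie within 0.2 of 0 or to its left; the pairs were chosen from known biology with earlier results of these libraries in view.

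For the buffering of ATP, 6 of 13 tested genes of phosphocreatine and adenylate metabolism were above both tissues (median log2 1.16). CKMT2, the mitochondrial creatine kinase of muscle, was at 478 and 1515 CPM in muscle, 1.27 and 0.690 CPM in fat and 4.00 and 2.98 CPM in liver (log2 9.83 ± 0.83 and 8.04 ± 0.77). AMPD1, the AMP deaminase of muscle, was at 664 and 1436 CPM in muscle, 0.392 and 0.592 CPM in fat and 0.600 and 0.166 CPM in liver (log2 10.96 ± 0.69 and 11.35 ± 0.73). AK1, adenylate kinase, was at 357 and 1557 CPM in muscle, 8.52 and 11.2 CPM in fat and 0.800 and 1.33 CPM in liver (log2 6.28 ± 0.58 and 9.60 ± 0.70). All 3 were higher in the Korean native pig muscle library. The genes that make creatine were highest in liver. GATM was at 9.52 and 5.77 CPM in muscle and 727 and 1863 CPM in liver (adjusted p 0.000359), and GAMT at 35.1 and 95.7 CPM in muscle, 10.3 and 7.99 CPM in fat and 235 and 281 CPM in liver, between the tissues. CKB, the creatine kinase of brain and other tissues, did not pass against either tissue.

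Nuclear genes for mitochondria differed by far less than those for contraction. Of 34 tested genes of the respiratory chain and ATP synthase, 10 were above both tissues and 2 below both (median log2 1.32), and scaling by total counts left 3 above both. The count of 10 became 2 without the Korean native fat library, 3 without the Korean native muscle library, 5 without either liver library and 20 without the Berkshire muscle library. COX5A, a subunit of cytochrome oxidase, was at 150.5 and 374 CPM in muscle, 84.8 and 60.4 CPM in fat and 44.2 and 48.9 CPM in liver (log2 1.76 ± 0.47, adjusted p 0.0469, and 2.43 ± 0.48, adjusted p 0.00776). COX5A lost the call with total counts and without the Korean native muscle or fat library. VDAC3, a channel of the outer membrane, was at 28.2 and 44.1 CPM in muscle, 5.29 and 6.31 CPM in fat and 1.80 and 3.98 CPM in liver (log2 2.60 ± 0.35 and 3.65 ± 0.39). The 2 genes below both were SLC25A5 and COX8A, the general form of a cytochrome oxidase subunit, at 12.8 and 16.8 CPM in muscle, 46.6 and 36.8 CPM in fat and 33.6 and 30.3 CPM in liver. With any single library left out 0 or 1 was below both, and COX8A lost the call in each case but without the Korean native muscle library.

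In the tricarboxylic acid cycle and linked reactions, 4 of 30 tested genes were above both tissues and 3 below both (median log2 0.69). Over all genes tested the shares were 7.26% and 2.68%. Scaled by total counts, 2 members were above both and 6 below both. IDH2, the mitochondrial isocitrate dehydrogenase that makes NADPH, was at 373 and 439 CPM in muscle, 28.3 and 26.4 CPM in fat and 98.2 and 116 CPM in liver (log2 3.88 ± 0.35 and 1.92 ± 0.32). Its cytosolic relative IDH1 went the other way, at 32.0 and 27.2 CPM in muscle, 316 and 312 CPM in fat and 288 and 217 CPM in liver (log2 -3.41 ± 0.34 and -3.08 ± 0.34). SUCLA2 and IDH3G were among the others above both, and the count was 1 without the Korean native muscle library or without either fat library, 2 without the Korean native liver library and 6 without the Berkshire muscle library. SUCLA2 lost the call with total counts, without the Korean native muscle library and without either fat library, and IDH3G in these cases and without either liver library. Below both beside IDH1 were PC, pyruvate carboxylase, at 127 and 54.4 CPM in muscle, 1087 and 935 CPM in fat and 323 and 309 CPM in liver (log2 -3.56 ± 0.45 and -1.89 ± 0.42), and ACO1, the cytosolic aconitase, at 112 and 71.3 CPM, 375 and 607 CPM and 354 and 343 CPM (log2 -2.42 ± 0.43 and -1.92 ± 0.42). Of these 3, 1 was left without the Korean native muscle library, where PC and ACO1 lost the call. OXCT1, which lets tissues other than liver burn ketone bodies, was above liver at 398 and 355 CPM in muscle, 547 and 529.9 CPM in fat and 12.0 and 11.6 CPM in liver (log2 4.99 ± 0.38, adjusted p 0.000139).

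For the use of fatty acids, the median log2 of 23 tested genes was -0.19 (-0.63 when scaled by total counts). None was below both tissues (2.68% of all genes tested), and 1 was above both, a share near the 7.26% of all genes tested. It was CPT1B, the carnitine palmitoyltransferase of muscle, which admits fatty acids to mitochondria, at 114 and 57.0 CPM in muscle, 10.5 and 5.82 CPM in fat and 2.60 and 2.32 CPM in liver (log2 3.37 ± 0.34, adjusted p 0.00123, and 5.02 ± 0.39, adjusted p 0.000162). CPT1A, the form of liver, was below liver at 69.4 and 12.7 CPM in muscle, 77.6 and 41.4 CPM in fat and 289 and 182 CPM in liver (adjusted p 0.0047). UCP3, an uncoupling protein of muscle, was at 111 and 48.2 CPM in muscle and 63.3 and 95.4 CPM in fat, which did not pass (adjusted p 0.917), and at 0.200 and 0.166 CPM in liver. HADHA and HADHB of the oxidation spiral, and ETFDH, did not pass against either tissue.

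Genes of protein folding and RNA processing were mixed. Of 11 tested genes of muscle protein quality control, 4 were above both tissues (median log2 1.13): UNC45B, FLNC, HSPB8 and HSPB6. FLNC, the filamin of muscle, was at 3947 and 2084 CPM in muscle, 35.4 and 103 CPM in fat and 4.60 and 13.8 CPM in liver (log2 5.73 ± 0.78 and 8.62 ± 0.89). HSPB8, a small heat shock protein, was at 448 and 611 CPM in muscle, 5.68 and 10.6 CPM in fat and 48.4 and 22.5 CPM in liver (log2 6.02 ± 0.61 and 3.88 ± 0.55). HSPB6 lost the call with total counts and without the Korean native muscle library or either fat library. VCP and HSP90AA1 did not pass against either tissue. Of 10 tested regulators of RNA processing, 5 were above both tissues and 1 below both, with 3 above both without the Korean native fat library. RBFOX1, a splicing factor of muscle and brain, was at 33.3 and 40.4 CPM in muscle, 0 and 0.197 CPM in fat and 0 counts in liver, at least 135-fold above liver. RBM20, which sets the splicing of titin, was at 45.0 and 26.8 CPM in muscle, 0.294 and 0.394 CPM in fat and 0.200 and 0.994 CPM in liver (log2 6.62 ± 0.63 and 5.77 ± 0.63). MBNL1, a muscleblind splicing factor, was at 1316 and 764 CPM in muscle, 258 and 314 CPM in fat and 206 and 217 CPM in liver (log2 1.84 ± 0.41 and 2.28 ± 0.41). Its relative MBNL3 was the gene below both, at 11.2 and 1.38 CPM in muscle, 30.2 and 10.8 CPM in fat and 553 and 254 CPM in liver. MBNL1 lost the call with total counts, without the Berkshire muscle library and without either fat library, and MBNL3 without the breed term, the Korean native muscle library or either fat library. Of 18 tested proteasome subunits, 1 was above both tissues, a share near the 7.26% of all genes tested, and the median log2 was 0.50. The subunit above both was PSMD11, which kept the call in 1 of 6 fits with a library left out.

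Read by fibre type, with lists that reuse members of those above, 13 of 13 tested genes of fast fibres and 6 of 8 of slow fibres were above both tissues. In the fast list the values in Korean native pig muscle were at least 2-fold those in Berkshire muscle for 7 of 13 genes, among them MYL11, TNNC2 and MYBPC2, and were 2-fold lower for none. In the slow list 1 of 8 was at least 2-fold higher (TNNI1) and 1 at least 2-fold lower (ANKRD2). Over all genes tested, 9.86% were at least 2-fold higher in Korean native pig muscle and 10.8% at least 2-fold lower. Of the 1003 genes above both tissues, 295 were at least 2-fold higher there and 45 lower. These ratios rest on 1 library per breed and have no test. CA3, the carbonic anhydrase of slow fibres, was above liver only, at 2526 and 4901 CPM in muscle, 965 and 537 CPM in fat and 19.6 and 79.2 CPM in liver. All 6 tested genes of developmental and cardiac forms were above both tissues (median log2 7.38, or 6.78 with bounds), with 4 without the Korean native fat library, though MYH8, MYH6 and MYH3 share sequence with genes not analysed here. ANKRD1, a stretch-responsive repeat protein of heart and muscle, was at 337 and 119.7 CPM in muscle, 0.294 and 0.0986 CPM in fat and 3.40 and 4.97 CPM in liver (log2 9.98 ± 0.74 and 5.55 ± 0.57).

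**Figure D4:**
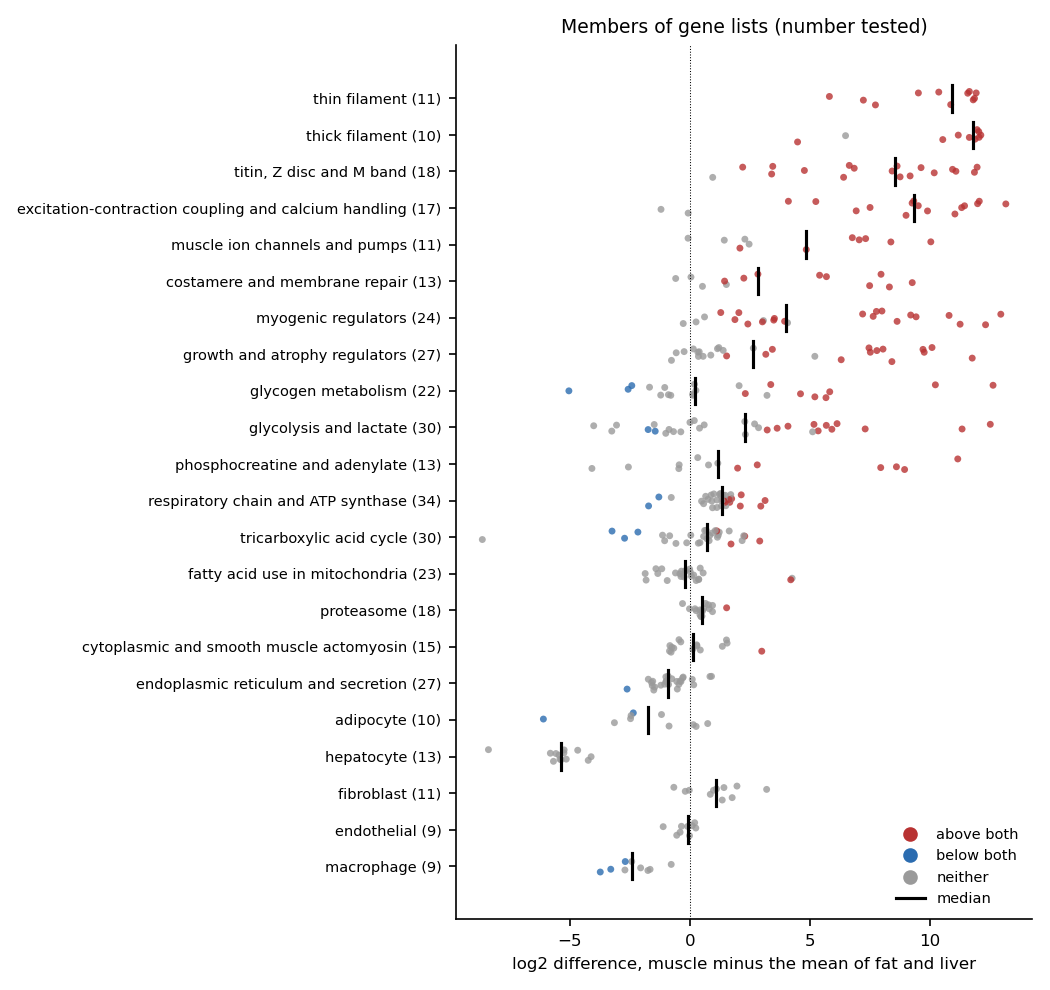
Log2 difference of muscle from the mean of fat and liver for the tested members of 22 lists (points, number tested in brackets; black bars the medians; red above both tissues, blue below both, grey neither). Medians run from 11.8 in the thick filament list to -5.37 in the hepatocyte list, with the 3 mitochondrial lists from -0.19 to 1.32; values of genes with 0 counts in a tissue depend on the prior count of the fit.

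Genes outside all lists included further sarcomere and membrane proteins. Of the 10 with the largest log2 difference and a mean of at least 100 CPM in muscle, MYPN (myopalladin) binds nebulin and alpha-actinin in the Z disc and was at 808 and 1123 CPM in muscle, 0 and 0.0986 CPM in fat and 0 and 0.663 CPM in liver (log2 11.46 ± 0.79 against liver). CMYA5 (myospryn), a partner of alpha-actinin and dysbindin, was at 406 and 479 CPM in muscle, 0.0979 and 0.197 CPM in fat and 1.60 and 1.49 CPM in liver (log2 8.15 ± 0.44 against liver). MYO18B, an unconventional myosin needed for sarcomere assembly, was at 454 and 436 CPM in muscle, 0.490 and 0.296 CPM in fat and 0.400 and 0.663 CPM in liver (log2 10.08 ± 0.51 and 9.63 ± 0.51). ANO5, known from limb-girdle muscular dystrophy, was at 133 and 246 CPM in muscle, 0 and 0.197 CPM in fat and 0.200 and 0 CPM in liver. For these 4 genes both muscle libraries were far above the others, of which none exceeded 1.60 CPM. DHRS7C, an enzyme of the sarcoplasmic reticulum, was at 225 and 420.0 CPM in muscle, and ATP1B4, a relative of sodium pump beta subunits, at 847 and 263 CPM. KY, LRRC39, HHATL and DUSP26 completed the set. KY, HHATL and DUSP26 had 0 counts in both libraries of liver or of fat, at least 649-fold and 511-fold above liver for KY and HHATL and at least 798-fold above fat for DUSP26. YBX3, a cold shock protein that binds mRNA, was also among the 20 genes with a symbol above both that had the highest CPM in muscle, at 6698 and 7487 CPM, against 249.5 and 291 CPM in fat and 163 and 51.9 CPM in liver (log2 4.71 ± 0.63 and 6.16 ± 0.68).

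The 10 genes with the highest mean CPM in fat and liver among those below both, with a log2 of at most -2 in each, are described here. APOE, an apolipoprotein that ferries lipids, was at 74.5 and 21.7 CPM in muscle, 1049 and 896 CPM in fat and 8591 and 5863 CPM in liver (log2 -4.54 ± 0.56 and -7.39 ± 0.63). ACACA, the acetyl-CoA carboxylase that starts fatty acid synthesis, was at 69.0 and 27.9 CPM in muscle, 625 and 1029 CPM in fat and 241 and 208 CPM in liver (log2 -4.17 ± 0.57 and -2.25 ± 0.52). PCK1, the gateway of glucose and glycerol synthesis, was at 6.04 and 0.692 CPM in muscle, 78.3 and 6.90 CPM in fat and 2339 and 294 CPM in liver (log2 -3.54 ± 0.43 and -8.68 ± 0.50). Both muscle libraries were below all others for these 3 genes, and the Korean native pig library was the lower. RBP4, the carrier of retinol, was at 6.04 and 0.923 CPM in muscle, 37.3 and 122 CPM in fat and 2509 and 2323 CPM in liver (log2 -4.46 ± 0.96 and -9.39 ± 1.11). AGT, angiotensinogen, passed as well. A2M, F5, ITIH3, ALDH1A1 and ST6GAL1 completed the 10 genes named here, with log2 differences from -4.42 ± 0.59 for ITIH3 to -2.09 ± 0.46 for ST6GAL1 against fat and from -10.30 ± 0.69 for A2M to -6.41 ± 0.57 for ALDH1A1 against liver. Without the Korean native muscle library A2M, F5, ALDH1A1, AGT, RBP4, ST6GAL1 and ACACA lost the call, and all of these but ACACA lost it without the Korean native fat library. A2M and ALDH1A1 also lost it without the Berkshire fat library, and A2M, F5, AGT and PCK1 without the breed term. Among 27 tested genes of the endoplasmic reticulum and secretion, none was above both tissues and 14 were below liver only (median log2 -0.91). Below both was 1, SEC61A1, a share near the 2.68% of all genes tested. Without the Korean native muscle library none was below both, and 11 were below both when scaled by total counts. HSP90B1, a chaperone of the reticulum, was at 330.0 and 197 CPM in muscle, 436 and 352 CPM in fat and 1608 and 1132 CPM in liver (log2 -2.40 ± 0.36, adjusted p 0.0025 against liver).

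Markers of other cell types were read in the same libraries. Hepatocyte markers summed to 105 and 91.1 CPM in muscle, 78.8 and 81.6 CPM in fat and 231100 and 255300 CPM in liver, and all 13 tested were below liver only. Adipocyte markers summed to 2034 and 644 CPM in muscle, 18360 and 36600 CPM in fat and 3682 and 2944 CPM in liver, with 8 of 10 below fat. PLIN1, which coats the lipid droplet of fat cells, was at 95.7 and 18.9 CPM in muscle, 1096 and 621 CPM in fat and 3.20 and 1.16 CPM in liver. ADIPOQ, LEP and FABP4 were not analysed here. Of 11 fibroblast markers, 8 were above liver only and none was called against fat, with sums of 24630 and 6241 CPM in muscle, 16190 and 23790 CPM in fat and 2271 and 1831 CPM in liver. Of 9 endothelial markers none was above or below both tissues. Macrophage markers summed to 139.5 and 52.6 CPM in muscle, 203 and 382 CPM in fat and 920.5 and 728 CPM in liver. Of 9 tested, 3 were below both tissues, with 0 without the Korean native muscle or fat library, 5 without the Berkshire muscle library and 6 without the Berkshire fat library. Tendon markers summed to 734 and 449 CPM in muscle, 588 and 164 CPM in fat and 64.0 and 57.3 CPM in liver, so that the Berkshire fat library overlapped those of muscle, and THBS4 and CILP of 7 tested were above both. That count was 1 with total counts or without the Korean native muscle or fat library, 3 without the Berkshire fat library and 4 without the Berkshire muscle library, and CILP lost the call in all of these but the last. Whether the amounts of these cells bear on any difference above was not tested.

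The 2 muscle libraries were not alike. Of the 1003 genes above both tissues, 340 differed at least 2-fold between them (after adding a prior count of 2), 295 higher in the Korean native pig library and 45 lower. A total of 960 were over 2-fold above the mean of fat and liver within each breed. These genes were chosen as above both in the same libraries, so the count of 960 is no independent support. Over all 13810 genes tested, 9.86% were at least 2-fold higher in Korean native pig muscle and 10.8% at least 2-fold lower. Of 30 tested glycolytic genes, 12 were at least 2-fold higher there and 3 at least 2-fold lower. LDHA was 3.34-fold and PKM 3.80-fold as high as in Berkshire muscle, and 13 of 34 respiratory chain genes were at least 2-fold higher and none 2-fold lower. At least 2-fold lower in Korean native pig muscle were 7 of 10 adipocyte markers, 6 of 11 fibroblast markers and 6 of 9 macrophage markers. FASN, fatty acid synthase, was at 361 and 60.4 CPM and COL3A1, a fibrillar collagen, at 14585 and 2773 CPM in muscle. PDK4, the kinase that shuts off pyruvate dehydrogenase in fasting, was at 3496 and 8.07 CPM in muscle, 1060 and 25.2 CPM in fat and 327 and 109.9 CPM in liver, so that Berkshire muscle was above both tissues of its breed and Korean native pig muscle below both of its own. With 1 library per breed, breed, animal, muscle sampled and library cannot be told apart, and the library with the higher glycolytic values was also the one with the lower adipocyte and fibroblast values.

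**Figure D5:**
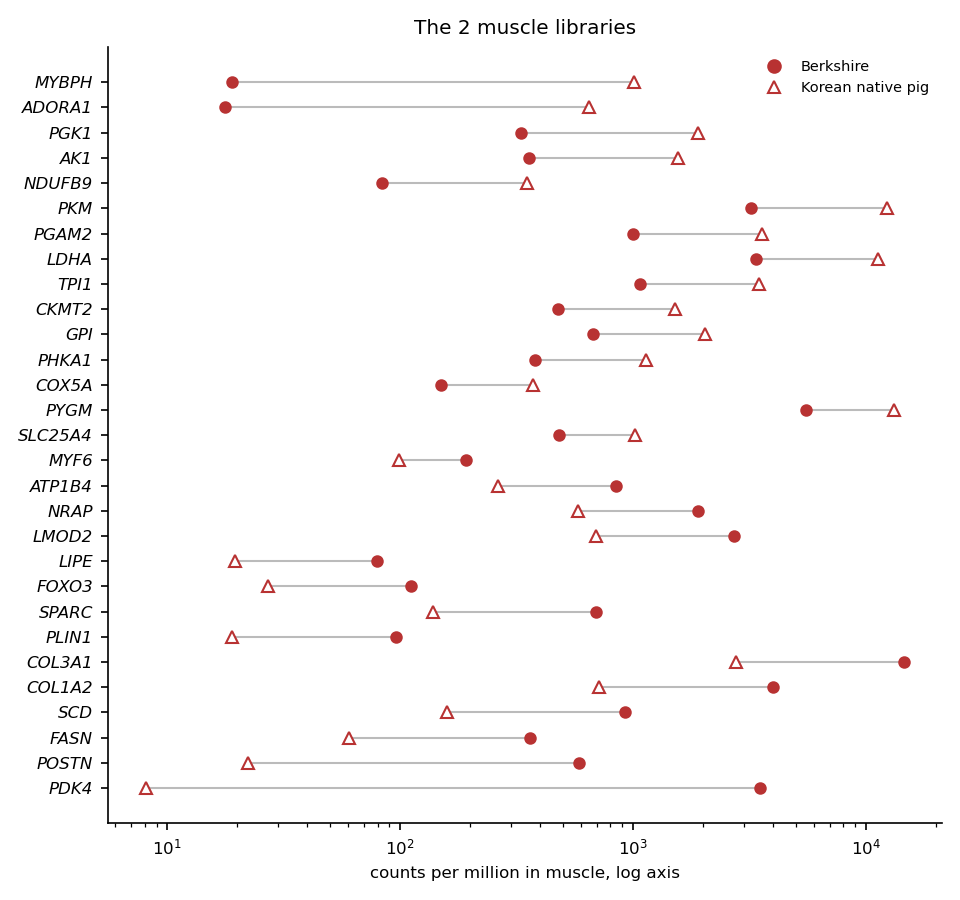
CPM (log axis) of selected genes in Berkshire muscle (filled circles) and Korean native pig muscle (open triangles), ordered by their ratio and chosen after their values were seen. Glycolytic and mitochondrial genes lie higher in the Korean native pig library and lipid and collagen genes higher in the Berkshire library, with MYBPH and PDK4 at the ends.

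A term for muscle by breed asked whether the breed difference in muscle departed from that in fat and liver. It leaves 1 residual degree of freedom, and no gene of 13810 passed (0% called by edgeR), with 1299 genes, 9.41%, at an unadjusted p under 0.05. DESeq2 called 32, limma-voom 0, and edgeR without the filter on low counts 12. The smallest p values belonged to MYBPH (log2 6.16 ± 0.55, adjusted p 0.124) and PADI2, a peptidylarginine deiminase (log2 -6.96 ± 0.63, adjusted p 0.124). PADI2 was at 86.8 and 1.15 CPM in muscle, 5.88 and 10.7 CPM in fat and 4.40 and 6.63 CPM in liver, high in the Berkshire muscle library alone. ADORA1, an adenosine receptor, was at 17.8 and 647 CPM in muscle, 58.1 and 70.0 CPM in fat and 0.400 and 0.994 CPM in liver (log2 4.76 ± 0.57, adjusted p 0.234). POSTN, periostin of connective tissue, was at 588 and 22.1 CPM in muscle, 102 and 100.4 CPM in fat and 954 and 671 CPM in liver (log2 -4.46 ± 0.57, adjusted p 0.234). HOXA5, COL11A1 and KERA with positive terms, and MMP27 and STC2 with negative ones, were among the others of smallest p, and in COL11A1, KERA and STC2 the fat libraries differed more than the muscle libraries.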

How the data were processed

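Each of the 6 libraries has a deposited table of raw counts per gene. The submitters' processing notes name TopHat, HTSeq 0.5.3p3 and the build Sscrofa10.2; no source used here states the strand setting, counting mode or annotation release. The 5 closing entries of each table were left out. Reads on no feature were 45.9% to 52.5% and reads not aligned uniquely 14.1% to 20.8% of all entries. Of 25322 gene IDs, 11804 had a symbol in the reference table.

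The counts were fitted with edgeR 4.0.16 (R 4.3.3): TMM scaling, filterByExpr, quasi-likelihood tests, and terms for tissue and breed, with Benjamini-Hochberg adjustment over the 13810 genes tested. The SE is the absolute log2 difference over the root of the F statistic. The fit had 2 residual degrees of freedom and a biological coefficient of variation of 29.5%. How often the fit misses a difference or calls an unchanged gene in these libraries was not tested. A tissue at 0 was set to 3 counts over its 2 libraries for lower bounds, which cover counting error only.

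Alternatives were RLE size factors, total counts, other filters, DESeq2 1.42.0, limma-voom (limma 3.58.1), no breed term, and each library left out. Members and lists were chosen with earlier results of these data known. Genes named are the 4 markers, the 20 above both of highest muscle CPM, 10 below both, up to 6 members of largest difference per list with those called against it and up to 3 that did not pass, both genes of each pair, 5 per direction of the muscle by breed term, and 10 outside the lists; further genes named in the text were chosen after their values were seen. Some genes that the rule names are not reported here.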

Additional observations from a re-analysis of the deposited data

Results flagged for a closer look

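In 3 genes named above, muscle was above both other tissues of one breed and below both of the other, and at least 2-fold from their mean in each; the listing rests on 1 library per tissue and breed and is a comparison of values, with the muscle by breed term as its test. ABCC8, PADI2 and PDK4 had log2 values of 1.63, 4.01 and 2.57 in Berkshire, and of -1.41, -2.43 and -2.63 in Korean native pigs. None passed the adjusted test of the term, where the adjusted p by edgeR was 0.529 for ABCC8, 0.124 for PADI2 and 0.502 for PDK4. ABCC8 stayed low in all 6 libraries, at 2.01 and 1.15 CPM in muscle.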

How the results depend on the processing

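The 1003 genes above both tissues became 532 to 1129 when single libraries were left out and 625 with a further minimum of 4-fold, and the 370 below both became 97 to 540, 165 with 4-fold and 1304 with total counts. The 2262 calls against fat became 6020 with total counts and 866 to 2652 without single libraries. The 3769 calls against the mean of fat and liver became 1965 to 3565 without single libraries and 297 where the 4 other libraries formed 1 group. Among the fits with a library left out, the lowest of these counts came without the Korean native muscle or fat library. The lowest count against the mean, 297, came from the fit with the 4 other libraries as 1 group. Where 1 library of a tissue remained it was assumed to vary like the others. The muscle by breed term had 0 calls, 12 without the filter and 32 with DESeq2. Breed pairs the tissues and is the block of the fit. Without the breed block 3591 genes were called against the mean, 2067 against fat, 4741 against liver, 953 above both and 332 below both. Precision is limited by 2 muscle libraries and 2 residual degrees of freedom, and differences near 2-fold may be missed.

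Of the 100 named genes above both and 22 below both, 27 and 18 lost the call under at least 1 alternative, 35 of them when a library was left out. The losses were 30 without the Korean native fat library, 27 without the Korean native muscle library, 17 without the Berkshire fat library, 8 and 7 without the Berkshire and Korean native liver libraries, 5 without the Berkshire muscle library, 10 with total counts, 9 with DESeq2, 8 without the breed block and 1 with the stricter filter. Among named genes, these log2 differences from the mean of fat and liver changed sign, and the cause was not tested. With DESeq2 they were ABCC8 0.23 (from -0.082). With total counts they were ETFDH -0.070 (from 0.36), FNDC5 -0.29 (from 0.12), FOXO1 -0.026 (from 0.38), GAMT -0.13 (from 0.32), HADHB -0.0067 (from 0.42), HDAC4 -0.19 (from 0.25), HSP90AA1 -0.18 (from 0.27), IGF1 -0.27 (from 0.14), PDK4 -0.0085 (from 0.36), PLIN1 -0.27 (from 0.14), SNTB1 -0.41 (from 0.039) and SPRY1 -0.13 (from 0.29). Without the breed block they were IGF1 -0.090 (from 0.14) and POSTN 0.091 (from -0.67). With single libraries left out, the ranges of those that changed sign were ABCC8 -1.90 to 1.68, COL3A1 -0.15 to 2.41, FNDC5 -0.60 to 0.71, FOXO1 -0.35 to 0.97, FOXO3 -0.23 to 1.15, GAMT -0.47 to 0.94, HDAC4 -0.40 to 0.79, HOXA5 -3.55 to 1.05, HSP90AA1 -0.27 to 0.70, IGF1 -0.78 to 0.89, MMP27 -0.998 to 6.06, MTM1 -0.20 to 0.085, PADI2 -2.91 to 4.11, PDK4 -3.05 to 2.29, PLIN1 -0.66 to 0.73, POSTN -3.61 to 0.92, PPARGC1B -0.86 to 0.067, SNTB1 -0.56 to 0.51 and STC2 -1.35 to 3.51.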

Other observations

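The 13 protein-coding genes of the mitochondrial genome were looked at after their values were seen. They took 17.4% and 17.6% of the tested counts in muscle (Berkshire first, then Korean native pig), 13.0% and 13.6% in fat and 13.1% and 17.6% in liver. None of the 13 was above both tissues, near the 7.26% of all genes tested. Another 3 were above fat only, as were 324 of all 13810 genes tested, and 10 were not called. Their log2 differences ran from 0.74 to 1.75 against fat and from -0.37 to 0.32 against liver. These log2 values are after TMM scaling, and the shares of counts are not. The TMM factors were 0.9145 and 0.7362 in muscle, 1.615 and 1.522 in fat and 0.7901 and 0.7644 in liver.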
